A study of Mus musculus with 8 samples.

Results

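Embigin, its relatives basigin and neuroplastin, and the monocarboxylate transporters they accompany were followed across every library of a study of enteric neural crest cells. The 7 genes, taken from the deposited expression table by gene symbol, were Emb, Bsg, Nptn, Slc16a1, Slc16a3, Slc16a7 and Slc16a10, out of 18561 genes in all, and each was present. These cells migrate along the developing gut and give rise to its neurons and glia. They were sorted from mouse gut at embryonic day 14.5 with antibodies to CD271 and CD57, at about 200 cells a tube, and sequenced after Smart-seq2 amplification. Of the 8 libraries 5 carry the genotype label Emb knockdown and 3 the label WT, all from the same tissue, age and sort. The labels do not say how Emb was lowered, in which cells, on which strain, or how many embryos went into a tube, so p-values reflect only how far these libraries scatter, and that scatter may be technical.

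Monocarboxylate transporters of the SLC16 family carry lactate, pyruvate and ketone bodies across the plasma membrane together with protons. Several of them reach the cell surface only in a complex with a glycoprotein of the immunoglobulin superfamily. Basigin (CD147, encoded by Bsg) is the usual partner of MCT1 (encoded by Slc16a1) and MCT4 (Slc16a3), and embigin is the preferred partner of MCT2 (Slc16a7). Neuroplastin, encoded by Nptn, is the third member of the basigin family and also escorts plasma membrane calcium pumps. Slc16a10 encodes TAT1, a carrier of aromatic amino acids that belongs to the same family by sequence and does not transport monocarboxylates.

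In the RefSeq annotation of GRCm38.p6 all 7 genes were protein coding. Emb (gene identifier 13723) lies on chromosome 13 from 117220573 to 117274415, Bsg (12215) on chromosome 10 from 79704358 to 79711979, and Nptn (20320) on chromosome 9 from 58582240 to 58652879. Slc16a1 (20501) lies on chromosome 3 from 104638664 to 104658462 and Slc16a3 (80879) on chromosome 11 from 120948484 to 120959000. Slc16a7 (20503) and Slc16a10 (72472) are both on chromosome 10, from 125219270 to 125389586 and from 40033532 to 40142270. Smart-seq2 reads carry no strand, and GENCODE places a gene of the opposite strand over part of Emb, Nptn, Slc16a7 and Slc16a10, so reads of those stretches cannot be assigned to a strand. Of these overlapping genes the table listed Rec114, beside Nptn, at 35 to 132 counts, against 2258 to 4043 counts of Nptn.

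The 150 bases before the start site are shown for 4 genes. They are shown because their patterns differ. On FPKM (a read count scaled to gene length and library size) Emb and Slc16a10 were highest in the libraries labelled knockdown 1 and 2, while Slc16a3 and Slc16a1 were each highest in a WT library. On CPM, explained below, Slc16a3 was instead highest in the libraries labelled knockdown 1 and 2. The sequences are from RefSeq on GRCm38.p6, 5′ to 3′ on the gene's strand. They lie at chr13:117220423-117220572 (plus strand) for Emb, chr10:40142255-40142404 (minus strand) for Slc16a10, chr11:120948917-120949066 (plus strand) for Slc16a3 and chr3:104638514-104638663 (plus strand) for Slc16a1. The promoter table held 5 of the 7 genes, the others being Bsg and Slc16a7. Capitals mark a match, on either strand, to the GC box GGGCGG or to the hypoxia response core ACGTG.
Emb: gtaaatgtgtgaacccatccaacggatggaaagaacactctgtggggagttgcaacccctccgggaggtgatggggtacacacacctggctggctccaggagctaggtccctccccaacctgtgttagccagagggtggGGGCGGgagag
Slc16a10: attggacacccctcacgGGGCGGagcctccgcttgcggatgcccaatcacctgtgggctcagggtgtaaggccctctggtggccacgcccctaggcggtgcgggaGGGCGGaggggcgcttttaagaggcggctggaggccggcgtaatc
Slc16a3: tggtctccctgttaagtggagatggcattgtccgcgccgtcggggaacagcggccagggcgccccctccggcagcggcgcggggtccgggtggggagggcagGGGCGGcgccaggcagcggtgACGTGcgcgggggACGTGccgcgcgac
Slc16a1: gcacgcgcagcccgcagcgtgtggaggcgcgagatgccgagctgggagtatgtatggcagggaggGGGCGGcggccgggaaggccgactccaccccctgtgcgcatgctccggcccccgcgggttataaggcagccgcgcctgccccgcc

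The GC box was found in each of the 4 windows, and in 28.6% of the 32851 promoter windows of that length. Of the 4 windows shown, the core ACGTG was found in that of Slc16a3 only, 27 and 14 bases before the start, and in 11.2% of all windows. It was not particular to Slc16a3 among the 7 genes. The window of Nptn, which is not shown, held matches 137, 136, 114 and 113 bases before the start. Those at 137 and 136 are the same CACGTG read on each strand, and so are those at 114 and 113. Slc16a1 had matches 200 and 199 bases before the start, beyond the window shown, again the same CACGTG read on each strand. Neither GAGGAA, the core bound by the leukocyte factor PU.1 and other ETS proteins (14.5% of all windows), nor TATAAA (7.6%) was found in the 4 windows shown. The motifs searched did not overlap each other in these 4 windows. The start sites used for Slc16a3 and Slc16a10 lie inside the annotated genes. A match is a stretch of letters, and binding was not measured.

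The libraries labelled Emb knockdown 1 and 2 stood apart from the other 6 in their cell type markers. The summed level of 20 leukocyte genes was 36630 and 30810 CPM there (CPM being a count scaled to its library's size, here with TMM factors that correct for composition), against 1759 to 3091 CPM for knockdown labels 3 to 5 and 568 to 832 CPM in WT, with 0 of the 20 genes at a count of 0 in any library. The summed level of 16 enteric neural crest genes ran the other way, at 233 and 179 CPM, 1591 to 1815 CPM and 4098 to 4566 CPM, and Sox10, Tlx2 and Foxd3 were at 0 counts in the library labelled knockdown 2. Ngfr, which encodes the CD271 used in the sort, was at 1.55 and 2.17 CPM in that pair, 14.1 to 23.6 CPM in those labelled knockdown 3 to 5 and 83.3 to 208 CPM in WT. Without these 2 libraries, 15 of 20 leukocyte genes and 5 of 10 mesenchyme genes passed the test as higher in the libraries labelled knockdown. Those that passed as lower were 12 of 16 enteric neural crest genes, 9 of 10 endothelial genes and 3 of 10 erythroid genes. Of the epithelial genes 0 of 9 passed. Of all genes tested 11.1% passed as higher and 9.37% as lower. Total counts ranged from 20116607 to 26959265. In a pool of cells, fewer cells of a type and less RNA per cell cannot be told apart, and each comparison is given with all 8 libraries and with the 6 that remain without these 2.

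Bsg dominated the ancillary subunits in the WT libraries, and Slc16a3 the carriers. These are levels of the whole sorted pool, which was not of neural crest transcripts alone. In WT, 10 mesenchyme genes summed to 3586 to 4717 CPM and 10 erythroid genes to 3426 to 8109 CPM. On the FPKM scale, which divides by gene length and so allows levels of different genes to be set side by side, the WT level of Bsg was 532.3 ± 48.1 FPKM (SD, n = 3). Nptn followed at 61.02 ± 3.23 FPKM, Slc16a3 at 31.9 ± 9.998 FPKM, Emb at 7.88 ± 0.596 FPKM and Slc16a1 at 6.42 ± 0.852 FPKM (SD, n = 3 for each). Slc16a10 and Slc16a7 were lowest, at 1.47 ± 0.534 and 1.45 ± 0.407 FPKM (SD, n = 3), and these last 2 overlapped. Emb and Slc16a1 were neighbours without overlap, the lowest Emb value in WT being 7.45 FPKM and the highest Slc16a1 value 6.98 FPKM.

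Among the 8 libraries 0 of the 7 genes passed the test between the libraries labelled knockdown and WT. In edgeR's quasi-likelihood test a gene passed at a p under 0.05 after Benjamini-Hochberg adjustment over every gene tested, and 0 of the 15411 genes tested passed it (0%). At an unadjusted p under 0.05 there were 2865 genes, while DESeq2 called 2220 and limma voom 3692. In the 6 libraries 3 of the 7 passed, Slc16a7 and Slc16a10 as higher and Slc16a3 as lower. Of all 15115 genes tested in that comparison 20.4% passed, 11.1% as higher and 9.37% as lower. Groups did not overlap for 5 of 7 genes with 8 libraries and for 6 of 7 with 6 libraries, where 22.7% and 43.4% of all genes tested did not overlap. All 7 genes passed the filter on low counts in both comparisons.

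**Figure D1:**
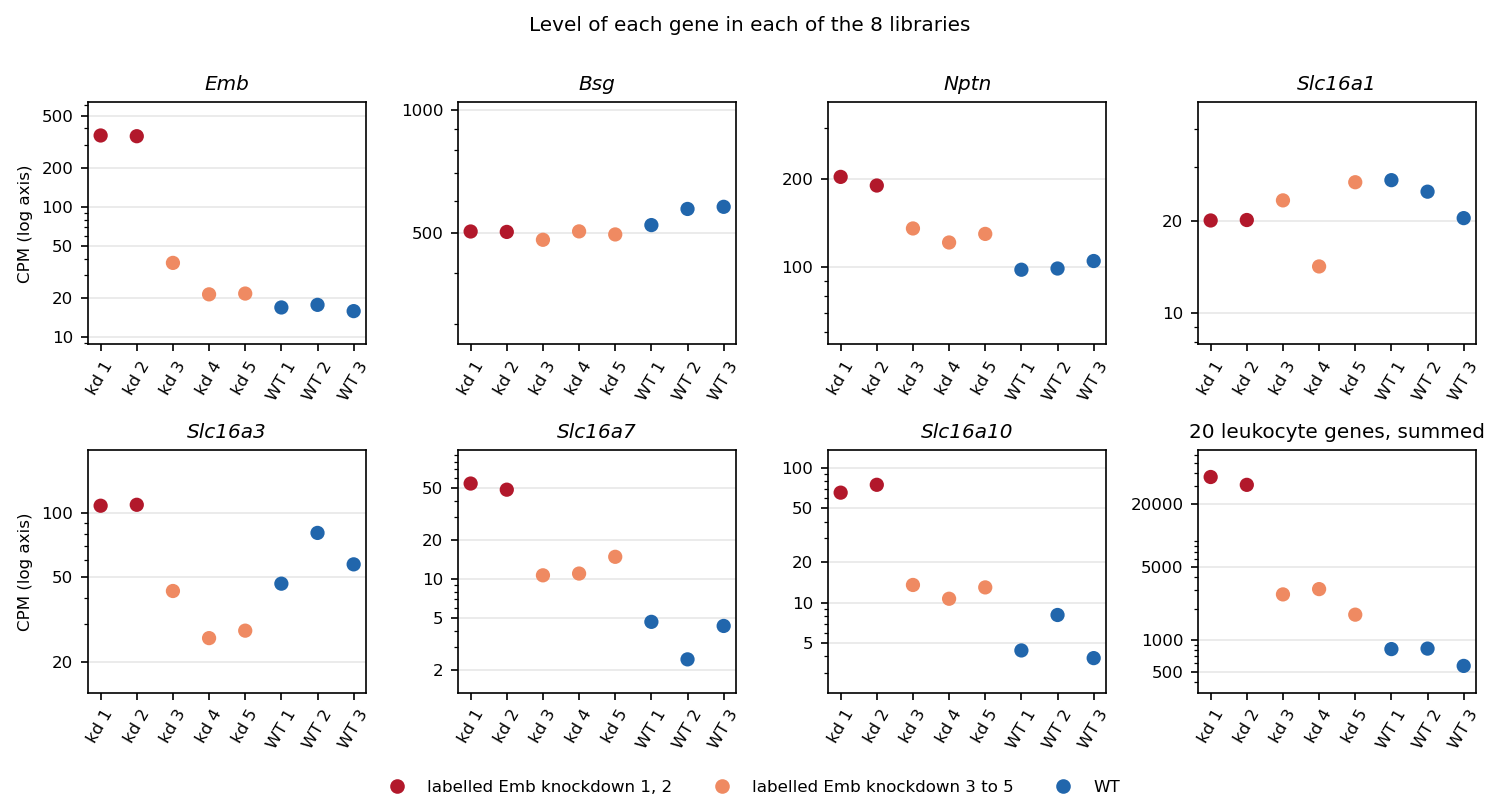
Each panel plots the level of a gene in CPM on a log axis, whose range differs between panels, for the 8 libraries on the horizontal axis, and the last panel gives the summed CPM of 20 leukocyte genes. Each point is a library. Emb, Slc16a7 and Slc16a10 were highest in the libraries labelled knockdown 1 and 2 and lowest in WT, Bsg stayed between 482 and 580 CPM, and Slc16a3 was lowest in the libraries labelled knockdown 3 to 5.

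On CPM and FPKM, Emb, the gene named in the genotype, was higher in every library labelled knockdown than in every WT library, by a very unequal margin. Its read counts were 6857, 7406, 1006, 457 and 470 in the libraries labelled knockdown 1 to 5, and 390, 551 and 433 in WT libraries 1 to 3. Relative to the WT mean in CPM, the libraries labelled knockdown stood at 21.0, 20.7, 2.21, 1.27 and 1.29 times. The first 2 libraries lay far above the rest, the third in between, and the last 2 just above WT. The log2 fold change was 3.21 ± 1.21 (SE) with 8 libraries (adjusted p = 0.217) and 0.67 ± 0.26 with 6 (adjusted p = 0.0972), and neither passed. With 8 libraries DESeq2 called Emb at 3.18 (adjusted p = 0.0156), while voom gave 0.86 (adjusted p = 0.174) and log2(FPKM + 1) gave 1.76 (adjusted p = 0.274), neither of which passed. Without the library labelled knockdown 3 the 6-library difference was 0.34 (adjusted p = 0.193). On the TPM scale the groups overlapped. The library labelled knockdown 4, at 10.31 TPM, lay below every WT library, these being at 10.37, 12.67 and 10.76 TPM. The library labelled knockdown 5, at 11.98 TPM, lay below WT library 2.

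Because no library labelled knockdown had less of the targeted transcript than WT on CPM or FPKM, directions are given as differences between labels. The counts are per whole gene and do not show whether part of the transcript was altered. The summed level of the 20 leukocyte genes was likewise highest in the libraries labelled knockdown 1 and 2 and lowest in WT, although for some of them, such as Lyz2 and Fcgr3, the library labelled knockdown 5 lay below at least 1 WT library, and their part in the Emb difference was not tested.

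On CPM, Bsg had the narrowest range of the 7 genes relative to its level. On FPKM the range of Nptn was narrower in that sense, at 57.47 to 82.55 FPKM. The libraries labelled knockdown 1 to 5 had 505, 504, 482, 506 and 497 CPM of Bsg, and WT libraries 1 to 3 had 524, 573 and 580 CPM. Every library labelled knockdown lay below every WT library, by a small margin. The log2 fold change was -0.16 ± 0.15 with 8 libraries (adjusted p = 0.605) and -0.17 ± 0.16 with 6 (adjusted p = 0.458), and neither passed. The gap was wider on FPKM, where the lowest values were the 318.6 and 336.1 FPKM of the libraries labelled knockdown 1 and 2 and WT lay at 477.0 to 564.7 FPKM. The groups did not overlap on CPM, FPKM or TPM.

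The level of Nptn in the libraries labelled knockdown 1 to 5 was 204, 190, 136, 122 and 130 CPM, against 98.1, 99.1 and 105 CPM in WT libraries 1 to 3. Among the libraries labelled knockdown the order was that of Emb, with a far smaller spread, the 2 highest values again being in the libraries labelled knockdown 1 and 2. The log2 fold change was 0.63 ± 0.23 with 8 libraries (adjusted p = 0.211) and 0.36 ± 0.15 with 6 (adjusted p = 0.115), without passing in either. On TPM the groups overlapped, at 75.7 to 104 TPM in the libraries labelled knockdown and 78.1 to 92.2 TPM in WT.

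The libraries differed in the make-up of the basigin family. Emb, Bsg and Nptn together came to 512 to 533 FPKM in the libraries labelled knockdown and 542 to 635 FPKM in WT. Emb took 21.6% of that sum in each of the libraries labelled knockdown 1 and 2, then 3.12%, 1.78% and 1.82% in those labelled 3 to 5, and 1.19% to 1.41% in WT. The share of Bsg was 62.3% and 63.1%, then 82.1% to 85.1%, and 88.0% to 88.9% in WT, and that of Nptn was 13.1% to 16.1% against 9.73% to 10.6%. Bsg thus remained the most abundant of the 3 in every library, and Emb exceeded Nptn in the libraries labelled knockdown 1 and 2 only. These shares are a description and were not tested.

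**Figure D2:**
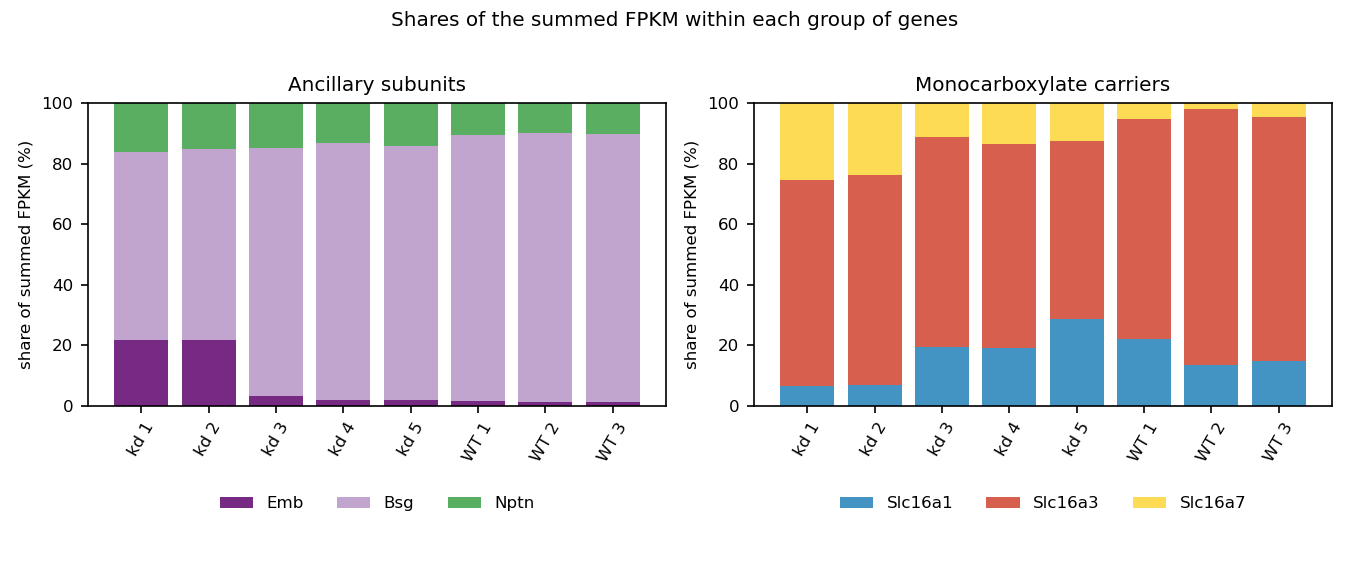
Stacked bars give the share of summed FPKM, in percent, of Emb, Bsg and Nptn (left) and of Slc16a1, Slc16a3 and Slc16a7 (right) in each of the 8 libraries. The Emb share was 21.6% in the first 2 libraries and at most 3.12% in the others, and Slc16a7 took 11.1% to 25.5% in the libraries labelled knockdown and 1.96% to 5.11% in WT.

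Slc16a7 encodes MCT2, a high-affinity carrier of pyruvate and lactate. Its read counts were 1055, 1035, 289, 236 and 322 in the libraries labelled knockdown 1 to 5 and 108, 75 and 119 in WT libraries 1 to 3. These correspond to 54.4, 48.8, 10.7, 11.04 and 14.9 CPM and to 4.69, 2.42 and 4.37 CPM. The groups did not overlap on CPM, FPKM or TPM, and on CPM the libraries labelled knockdown 3 to 5 lay between the first 2 and WT. With 6 libraries Slc16a7 rose, from 4.16 ± 1.34 CPM in WT to 13.3 ± 2.51 CPM (SD, n = 3 for each), a log2 fold change of 1.68 ± 0.36 (adjusted p = 0.0184). With 8 libraries the log2 fold change was 2.87 ± 0.75 (adjusted p = 0.149). The 6-library call was lost when the library labelled knockdown 4 (adjusted p = 0.0722), WT library 2 (0.0718) or WT library 3 (0.0719) was left out, and on log2(FPKM + 1), where the difference was 0.70 (0.0568), and log2(FPKM + 0.1), where it was 1.00 (0.0643).

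Slc16a10, which encodes the aromatic amino acid carrier TAT1, was likewise highest in the libraries labelled knockdown 1 and 2, lower in 3 to 5 and lowest in WT. The libraries labelled knockdown 1 to 5 had 65.5, 74.9, 13.6, 10.7 and 13.0 CPM, and WT libraries 1 to 3 had 4.43, 8.12 and 3.89 CPM. Every library labelled knockdown exceeded every WT library on CPM, FPKM and TPM, WT library 2 lying closest. With 6 libraries Slc16a10 rose, with a log2 fold change of 1.18 ± 0.35 (adjusted p = 0.0463), and with 8 the value was 2.69 ± 0.86 (adjusted p = 0.183). The call was lost with any of the 6 libraries left out (adjusted p from 0.0593 to 0.166), without a composition factor (0.0622) and without a filter on low counts (0.0513). Counts of Slc16a10 were not whole in 6 of 8 libraries, so part of its count is an estimate.

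Slc16a3 encodes MCT4, the carrier typical of cells that export lactate. The libraries labelled knockdown 1 to 5 had 108, 109, 43.0, 25.9 and 28.0 CPM, and WT libraries 1 to 3 had 46.6, 80.5 and 57.4 CPM. The libraries labelled knockdown therefore fell on both sides of WT, with 1 and 2 above and 3 to 5 below. On FPKM the libraries labelled knockdown 1 and 2 were at 36.9 and 39.6, inside the WT range of 23.1 to 42.8, while 3 to 5 remained below it at 12.3 to 21.2. With 8 libraries the log2 fold change was 0.031 ± 0.56 (adjusted p = 0.984). With 6 libraries Slc16a3 fell, from 66.8 ± 18.9 to 35.2 ± 10.2 CPM (SD, n = 3 for each), a log2 fold change of -0.93 ± 0.27 (adjusted p = 0.0443). That call was lost without the library labelled knockdown 4 (0.17) or 5 (0.115) and without WT library 1 (0.0559), 2 (0.171) or 3 (0.115). Its counts were not whole in 5 of 8 libraries.

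Slc16a1, the gene of the widely expressed carrier MCT1, had 20.04, 20.1, 23.3, 14.2 and 26.7 CPM across the libraries labelled knockdown 1 to 5 and 27.2, 24.9 and 20.4 CPM in WT libraries 1 to 3. The groups overlapped, and the library labelled knockdown 4 was lowest. The log2 fold change was -0.21 ± 0.27 with 8 libraries (adjusted p = 0.731) and -0.17 ± 0.27 with 6 (adjusted p = 0.671). The latter was 0.052 without the library labelled knockdown 4 (adjusted p = 0.901).

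The 3 monocarboxylate carriers together came to 54.3 and 56.8 FPKM in the libraries labelled knockdown 1 and 2, 18.2 to 30.6 FPKM in those labelled 3 to 5 and 31.7 to 50.6 FPKM in WT. Slc16a3 made up 59.0% to 69.7% of that sum in the libraries labelled knockdown and 72.9% to 84.5% in WT, and Slc16a7 made up 11.1% to 25.5% against 1.96% to 5.11%. The share of Slc16a1 was 6.61% and 6.67% in the libraries labelled knockdown 1 and 2, and 18.9% to 28.5% in those labelled 3 to 5, where it overlapped the WT range of 13.5% to 22.0%. The shares of Slc16a3 and Slc16a7 did not overlap between the labels, while the sum lay above the WT range in the first 2 libraries and below it in the other 3. These too are descriptions without a test.

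**Figure D3:**
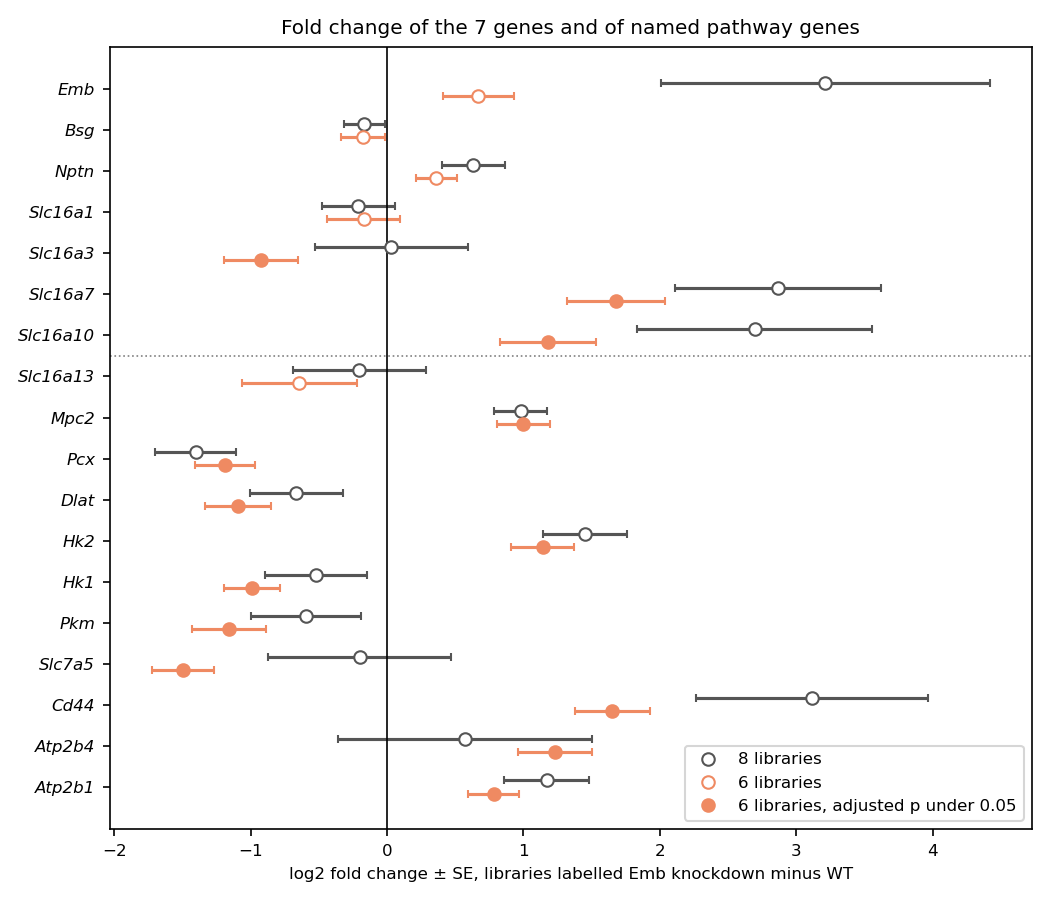
Points give the log2 fold change of the libraries labelled Emb knockdown minus WT, bars its SE, for the 7 genes (above the dotted line) and for named pathway genes (below), with 8 libraries in grey and 6 in orange. Filled points passed an adjusted p under 0.05. Slc16a7 and Slc16a10 lay above 0 in both comparisons, and Slc16a3 moved from 0.031 with 8 libraries to -0.93 with 6.

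**Figure D4:**
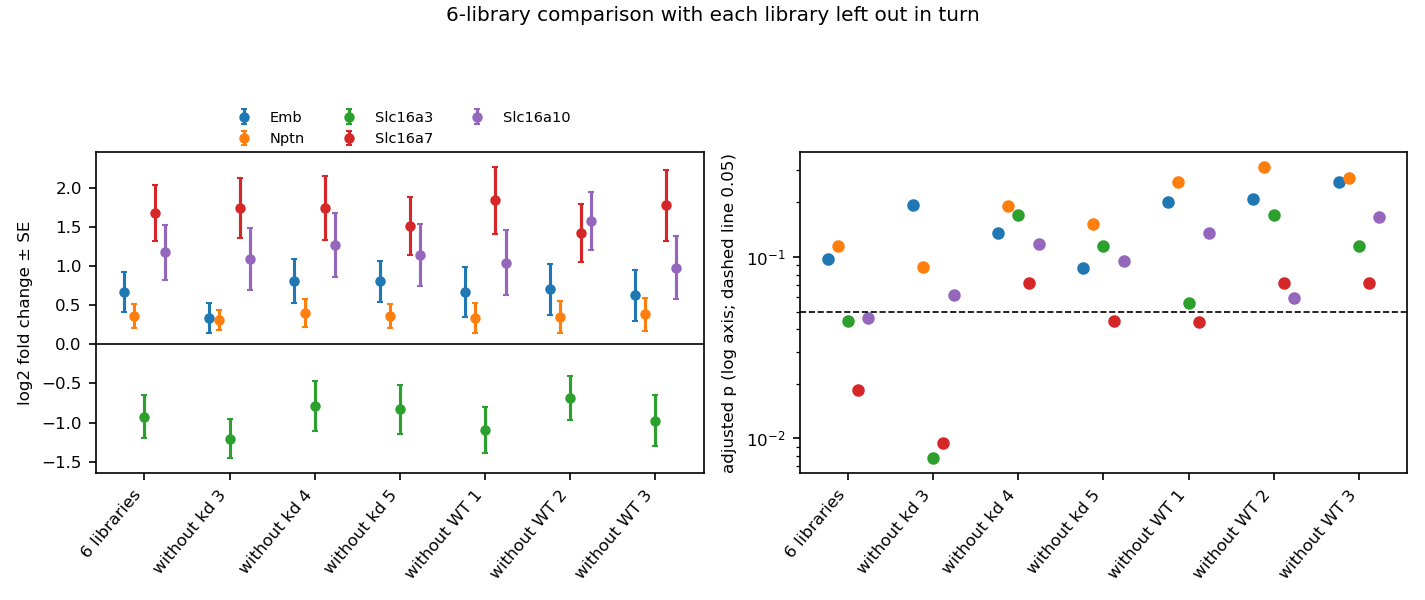
The left panel gives the log2 fold change with its SE for 5 of the genes in the 6-library comparison and with each of its libraries left out, and the right panel gives the adjusted p on a log axis, the dashed line being 0.05. The sign of each of the 5 differences was the same in every case, while Slc16a10 was above the line whenever a library was left out, and so was Slc16a3 except without the library labelled knockdown 3.

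The rest of the SLC16 family was mostly low. Of the 10 other family genes, all in the table, 7 were tested with 6 libraries, of which 0 passed, and 9 with 8 libraries, of which 0 passed. Their median log2 fold change was -0.40 with 6 libraries and -0.20 with 8, against 0.021 and 0.069 for all genes tested. Slc16a13 was at 17.6, 12.5 and 14.6 CPM in WT libraries 1 to 3 and at 19.4, 16.7, 10.6, 3.98 and 13.97 CPM across the libraries labelled knockdown 1 to 5. The groups overlapped, and the log2 fold change with 6 libraries did not pass (-0.64 ± 0.42, adjusted p = 0.297). It was -0.28 (adjusted p = 0.558) without the library labelled knockdown 4, and voom called it at -1.37 (adjusted p = 0.0133).

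Slc16a6 was named after its values were seen. The libraries labelled knockdown 1 and 2 had 142 and 147 CPM, and those labelled 3 to 5 had 15.3 to 19.5 CPM, a range that overlapped the 10.4 to 16.5 CPM of WT. On FPKM it was the second most abundant family gene in the first 2 libraries, at 26.6 and 28.9 FPKM after Slc16a3. Its log2 fold change did not pass with 8 libraries (2.31 ± 0.98, adjusted p = 0.262) or with 6 (0.30 ± 0.25, adjusted p = 0.41). Slc16a8, the retinal carrier MCT3, and Slc16a9 were at 0 counts in the libraries labelled knockdown 1 and 2, where 3 counts correspond to 0.155 and 0.141 CPM. Their highest levels in any library were 0.49 and 1.55 FPKM.

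**Figure D5:**
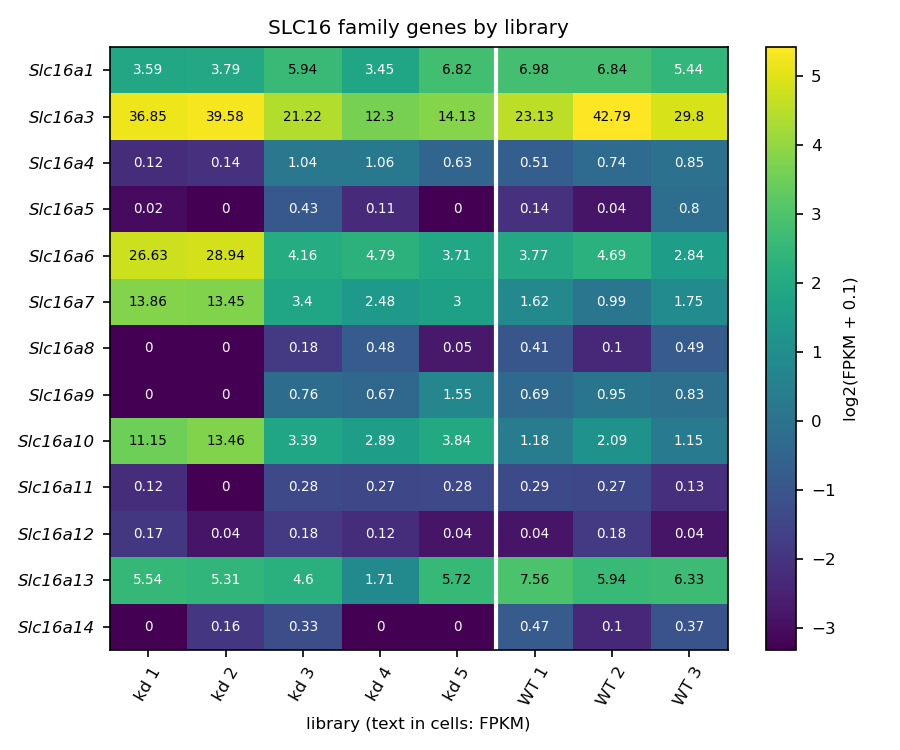
The colour of each cell gives log2(FPKM + 0.1), and its text the FPKM, for SLC16 family genes (rows) in the 8 libraries (columns), a white line parting the libraries labelled knockdown from WT. Slc16a3 was the most abundant family gene in every library, and Slc16a6, Slc16a7 and Slc16a10 were highest in the first 2.

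Genes that act around the transporters passed the test as often as genes in general. The lists held 60 genes of lactate and pyruvate handling, glycolysis, the remaining SLC16 family and other partners of basigin and neuroplastin. With 6 libraries 11 of the 54 tested passed, 5 as higher and 6 as lower, which is 20.4% and equal to the share over all genes. With 8 libraries 0 of 56 passed.

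Of 3 other carriers and receptors of lactate and pyruvate that were tested, 1 rose and 0 fell (median log2 fold change 0.17). The gene that rose was Mpc2, a subunit of the mitochondrial pyruvate carrier. Its mean went from 62.7 ± 6.45 to 125 ± 24.1 CPM (SD, n = 3 for each, as in the pairs of means that follow, with WT first), a log2 fold change of 1.00 ± 0.19 (adjusted p = 0.0144). Of 14 lactate and pyruvate enzymes 2 fell and 0 rose (median -0.34). Pcx, the gene of pyruvate carboxylase, fell from 24.4 ± 2.86 to 10.7 ± 0.858 CPM (-1.19 ± 0.22, adjusted p = 0.0136), and Dlat, a subunit gene of pyruvate dehydrogenase, from 83.3 ± 5.97 to 39.0 ± 12.9 CPM (-1.09 ± 0.24, adjusted p = 0.0204). Mpc2 was higher and Pcx lower in every library labelled knockdown, 1 and 2 included, than in every WT library.

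In glucose entry and glycolysis 1 of 18 genes rose and 2 fell (median -0.26), and the members that moved included both hexokinase genes in opposite directions. Hk2 rose from 22.7 ± 0.945 to 50.2 ± 13.97 CPM (1.14 ± 0.23, adjusted p = 0.0158). Hk1 fell from 60.4 ± 1.75 to 30.5 ± 6.83 CPM (-0.99 ± 0.21, adjusted p = 0.017). Pkm, the gene of muscle-type pyruvate kinase, fell from 2297 ± 146 to 1031 ± 385 CPM (-1.16 ± 0.27, adjusted p = 0.0233). In the libraries labelled knockdown 1 and 2 Hk2 was also above every WT library, at 76.4 and 71.8 CPM, whereas Pkm, at 1971 and 2193 CPM, and Hk1, at 37.5 and 72.2 CPM, reached the level of WT in at least 1 of them.

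Among 12 other partners of basigin and neuroplastin 3 rose and 2 fell (median -0.30). Cd44, the hyaluronan receptor that associates with basigin, rose by 1.65 ± 0.27 on the log2 scale (adjusted p = 0.0105), and the libraries labelled knockdown 1 and 2 had 370 and 310 CPM against 15.7 to 24.99 CPM in WT. The calcium pump genes Atp2b1 and Atp2b4, whose products pair with neuroplastin, rose by 0.78 ± 0.19 and 1.23 ± 0.27 (adjusted p = 0.0252 and 0.0194). In the libraries labelled knockdown 1 and 2 Atp2b1 was also high, at 508 and 485 CPM, while Atp2b4 was below WT there, at 3.76 and 7.21 CPM against 24.7 to 32.1 CPM. Slc7a5, the amino acid carrier LAT1, fell from 75.8 ± 8.62 to 26.9 ± 7.12 CPM (-1.49 ± 0.23, adjusted p = 0.009), and was above every WT library in those labelled knockdown 1 and 2, at 89.4 and 140 CPM. Itga3, named after its values were seen, fell by 0.62 ± 0.19 on the log2 scale (adjusted p = 0.0477).

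Of the pathway genes named by rule, 10 were named because they passed with 6 libraries, while others, such as Slc16a13, were named without passing. All 10 lost their call once the library labelled knockdown 4 was left out (adjusted p from 0.0503 to 0.114). For 8 of them, all but Slc7a5 and Cd44, the call was also lost without WT library 2 (0.0631 to 0.0846) or WT library 3 (0.0687 to 0.108). It was lost for Hk2, Atp2b1 and Atp2b4 without WT library 1 (0.0527 to 0.0781), and for Pkm and Atp2b1 without the library labelled knockdown 5 (0.065 and 0.0574). The lists were chosen with earlier results of these libraries known, and the part of leukocyte and mesenchyme genes in these differences was not tested.

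Genes whose pattern was most like that of Emb over the 8 libraries were Hpgd, Samsn1 and Spi1, with Pearson correlations of log2 CPM of 0.998, 0.998 and 0.997. Hpgd encodes a prostaglandin-degrading enzyme, Samsn1 an adaptor of haematopoietic cells and Spi1 the leukocyte transcription factor PU.1. The libraries labelled knockdown 1 and 2 lie far from the other 6, and this measure contains that gap, with 1588 genes above 0.9. Over the 6 libraries the genes most like Emb were Glrx (0.996), Cfdp1 (0.99) and Phlda1 (0.979), with 76 genes above 0.9.

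For Bsg, Slc16a1 and Slc16a3 the 3 genes most alike over 8 libraries were not among the 3 most alike over 6. Those most like Bsg were Bag4 (0.948), Pan2 (0.945) and Nr2f6 (0.943) over 8 libraries, and Cmtr1 (0.998), Zfp93 (0.99) and Med25 (0.987) over 6. Those most like Slc16a1 were Abhd3 (0.962), Cplane2 (0.933) and Zfp870 (0.884) over 8, and Otop3 (0.992), Zfp37 (0.992) and Cdk5r2 (0.985) over 6. For Slc16a3 they were Vps37c (0.993), Fcho1 (0.989) and Cog2 (0.989) over 8, and Nme6 (0.993), Spout1 (0.993) and Mtrr (0.992) over 6. With so few libraries, high correlations arise for many genes, and these values describe likeness in these libraries without a test.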

How the data were processed

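Per the labels' protocols, cDNA from about 200 sorted cells a tube was amplified with Smart-seq2 and sequenced as DNA nanoballs. The submitters' processing notes name HISAT, Bowtie2 and GRCm38.p6, and a counting tool or annotation was not given in the sources used here. The authors deposited 1 table with expected counts per gene, estimated without normalisation per the file headers (17.6% to 19.8% of values not whole). It also holds FPKM and TPM values that the authors scaled to gene length, and a normalised count signal made by the authors, per the file headers, which was not used. The 0 columns outside the series and the columns of group means were not used.

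Expected counts were rounded to whole numbers, filtered with filterByExpr, scaled with TMM factors and tested by edgeR 4.0.16 (quasi-likelihood, robust, two-sided, R 4.3.3) over all genes, with a Benjamini-Hochberg adjusted p under 0.05 as the threshold. The 6-library fit computed filter and scaling anew. CPM of single libraries use the scaling of 8 libraries, and means ± SD beside a 6-library fold change use that of 6. The SE is the log2 fold change over the root of the F statistic. Likeness used log2 CPM with a prior count of 2. Alternatives were DESeq2 1.42.0, limma 3.58.1 (voom with quality weights, and log2(FPKM + 1) and log2(FPKM + 0.1)), other size factors and filters, each library left out, and a replicate block. The scripts were tested on simulated data. Of 18561 genes 18507 matched RefSeq.

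The named genes were the 7 members, from each pathway list up to 4 members past the threshold or, where none passed, the 2 with the smallest p, and the 3 genes most like Emb, Bsg, Slc16a1 and Slc16a3. A gene that this rule names is not reported here. Members, lists and tests were chosen with earlier results of these data known. The overlap of groups on other scales was added after seeing the data.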

Additional observations from a re-analysis of the deposited data

Results flagged for a closer look

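In the library labelled knockdown 5, Slc16a3 made up 59.0% of the summed FPKM of Slc16a1, Slc16a3 and Slc16a7, against 67.5% to 69.7% in the other 4 libraries labelled knockdown. The gap was 0.795 of the whole range of the group, above the critical value of 0.71 for 5 samples. It was the only such gap among 27 quantities looked at in this group. Chance gives about 1 in 20, so 1 gap among 27 is not unusual. Shares of the same sum also depend on each other, and the group mixes libraries whose cell type markers differ. The same library had the highest Slc16a1 level of the group, at 26.7 CPM.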

How the results depend on the processing

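With 8 libraries the count of genes called was 0, against 2220 with DESeq2 and 3692 with voom, and 0 to 2 with a library left out. With 6 libraries it was 3090, against 6900 with voom and 180 to 5982 with a library left out. Of the 6-library calls 54.1% were higher, against 45.4% with library size alone, and 38.4% and 39.3% on log2(FPKM + 1) and log2(FPKM + 0.1). The median of all genes in the 8-library comparison moved from 0.069 to -0.17 without a composition factor, -0.21 on log2(FPKM + 1) and -0.35 on log2(FPKM + 0.1). Emb, Bsg, Nptn, Slc16a7 and Slc16a10 kept their direction under every alternative run in both comparisons. The 8-library difference of Slc16a3 changed sign to -0.35 without a composition factor, -0.88 with voom, -0.0367 without a filter, -0.0605 with 10 counts required in every library, -0.45 and -0.48 on log2(FPKM + 1) and log2(FPKM + 0.1) and -0.93 with 6 libraries, and ranged from -0.26 to 0.29 with a library left out. The difference of Slc16a1 with 6 libraries ranged from -0.36 to 0.0523 with a library left out. With 8 libraries that of Slc16a13 ranged from -0.39 to 0.0281 and that of Slc7a5 from -0.77 to 0.0316, and that of Atp2b4 was -0.13 and -0.47 on log2(FPKM + 1) and log2(FPKM + 0.1). DESeq2 and voom each called Slc16a7 and Slc16a10 with 8 libraries. The cause of these changes was not tested.

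Libraries labelled knockdown and WT share the numbers 1 to 3, and the labels do not say whether these numbers mark pairs. Deviations of same-numbered libraries from their group means correlated at -0.0274, 0.0402 and -0.0449 across genes. The knockdown mean mixes libraries 1 and 2 with 3 to 5, whose cell type markers differ. These correlations therefore cannot show whether same-numbered libraries belong together. With the replicate block 0 genes were called with 8 libraries, Emb was at 3.39, Slc16a7 at 3.09, Slc16a13 at 0.0346, Slc7a5 at 0.10 and Atp2b4 at -1.44. With 6 libraries the groups share 1 number, and no block could be fitted. On TPM the groups did not overlap for 3 members with 8 libraries and 4 with 6, against 5 and 6 on CPM. Of all genes tested 22.7% with 8 libraries and 43.4% with 6 did not overlap on CPM. That share was not computed on TPM, so the TPM counts cannot be set against genes in general. Of the 3 genes most like Emb over 8 libraries 0 were among the 10 most alike by Spearman correlation, and over 6 libraries 1. By that measure 7 genes tied at the top over 8 libraries and 23 over 6, and ties were ordered by gene name. A gene tied with the last of the 10 could be left out, so these counts may depend on spelling.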

Other observations

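The lactate dehydrogenase genes, which make the substrate these transporters carry, differed in balance between the libraries. The ratio of Ldha to Ldhb on FPKM was 21.5 and 53.2 in the libraries labelled knockdown 1 and 2, 5.17, 3.36 and 4.38 in those labelled 3 to 5, and 3.03, 2.83 and 2.94 in WT libraries 1 to 3. The groups did not overlap, and the ratio was chosen outside the rule for named genes. How often ratios of other genes do not overlap was not computed over all genes. Of single genes tested with 8 libraries, 22.7% did not overlap on CPM. Neither gene passed with 6 libraries, where Ldha had a log2 fold change of -0.36 ± 0.36 (adjusted p = 0.488) and Ldhb one of -0.94 ± 0.30 (adjusted p = 0.0578).

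Slc3a2, which encodes the heavy chain that pairs with the product of Slc7a5, reached 742 and 694 CPM in the first 2 of the libraries labelled knockdown, and was at 172 to 202 CPM in the other 3 and at 182 to 243 CPM in WT. It did not pass with 8 libraries (log2 fold change 0.85 ± 0.59, adjusted p = 0.491) or with 6 (-0.23 ± 0.18, adjusted p = 0.373). The ratio of Bsg to Emb on FPKM was 2.88 and 2.92 in the libraries labelled knockdown 1 and 2, 26.3 to 47.8 in those labelled 3 to 5 and 62.5 to 74.5 in WT.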
